A study of Mus musculus with 2 samples.

Results

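Accessible chromatin was examined around 9 genes of the erythroid and megakaryocyte lineages in resting mouse B cells. The genes were the globin genes Hbb-b1 and Hba-a1, the transcription regulators Klf1, Gata2, Tal1 and Lmo2, the erythropoietin receptor Epor, and the platelet genes Pf4 and Itga2b. A DNaseI hypersensitive site (DHS) was taken as a member when it overlapped the body of one of these genes, or 50 kb on either side, by at least 1 bp. This gave 57 of the 47542 DHS in the deposited list. The globin windows include the beta-globin control region on chromosome 7.

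The cells were B cells from the spleen of C57/Bl6 mice with both copies of p53 intact (Trp53+/+), 8 weeks old and mock treated. Per the methods of the study, red cells of the spleen were first lysed in hypotonic buffer. The B cells were enriched with beads against B220, a surface protein of B cells, and apoptotic cells were removed on a Ficoll gradient before the nuclei were digested with DNaseI, an enzyme that cuts open chromatin more readily than chromatin packed in nucleosomes. The series holds 1 DNaseI library and 1 input library of the same cells, and the deposited values are the peaks of the DNaseI library. With 1 library there is no replicate error and no test, every comparison below is descriptive, and the number of mice behind the library was not given in the sources used here. The depth is unknown, so a region without a DHS is one where none was called.

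Red cells and platelets arise from a shared progenitor. GATA factors, TAL1, LMO2 and LDB1 bind DNA there as one complex at an E-box next to a GATA site, and KLF1 binds CACCC boxes at red cell genes. GATA2 acts early and is replaced by GATA1 as red cells mature. Globin genes are switched on by distant enhancers, for beta-globin the locus control region upstream of the cluster, and for alpha-globin a set of elements within and beside Nprl3. Mature B cells make neither haemoglobin nor platelet proteins, but LMO2 is also made in B cells of the germinal centre.

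The labelled cell type was checked against its markers. All 8 B cell markers had a promoter DHS, that is a DHS overlapping the region −5/+2 kb from a transcription start site (TSS), against 57.0% of 22350 protein-coding genes. Of 8 T cell markers 1 had one (Lck, a kinase of T cell receptor signalling), and of 6 myeloid markers 2 (Emr1 and Itgam). Of 7 erythroid markers 2 had one, among them Klf1. The defining markers Hba-a1, Hbb-b1, Alas2 and Slc4a1 were among those without. Of 5 megakaryocyte markers 1 had one, Itga2b, and Pf4, Gp9 and Ppbp were among those without. A minor population of other spleen cells, and fewer open copies of a site per cell, cannot be told apart in such bulk DNA.

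Of the 9 genes, 5 had a promoter DHS (55.6%, exact 95% interval 21.2 to 86.3), close to the 57.0% of all protein-coding genes. These were Klf1, Gata2, Tal1, Lmo2 and Itga2b, and the 4 without were Hbb-b1, Hba-a1, Epor and Pf4. All 4 transcription regulators were on the side with a promoter DHS, and both globin genes and the receptor on the other. Within 1 kb of a TSS the count was 4, without Gata2, against 53.7% of all genes. A DHS covered a TSS itself in Tal1 and Lmo2 only, 2 of the 9 genes, against 46.6% of all genes. A DHS lay in the gene body of 4 members (Klf1, Tal1, Lmo2 and Itga2b), against 57.9%. Every member had at least 1 DHS in its body and flanks, as did 77.0% of all genes. Promoters are CpG-rich or CpG-poor by their 1 kb around the TSS, and CpG-rich ones are often open in all tissues. Gata2 and Tal1 were CpG-rich and both had a promoter DHS, against 85.5% of such promoters. Of the 7 CpG-poor members 3 had one, against 38.9%.

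The 57 DHS were spread unevenly over the windows. Klf1 and Lmo2 had 12 each, Itga2b 11, Epor 9, Hba-a1 5, Hbb-b1 4, Tal1 2, and Gata2 and Pf4 had 1 each. Relative to window length the median member had 4.95 DHS per 100 kb, against 3.39 over all protein-coding genes with quartiles of 0.663 and 6.92. Klf1, at 11.6 per 100 kb, stood at the percentile 92.4 among all genes, and Gata2, at 0.884, at 27.7. Only 15 of the 57 DHS had the member's own TSS as the nearest protein-coding TSS, and 9 of those were at Lmo2. The remaining 42 lay nearest the TSS of another gene. No DHS of the Hbb-b1, Hba-a1, Epor or Pf4 windows was nearest to the member itself.

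**Figure D1:**
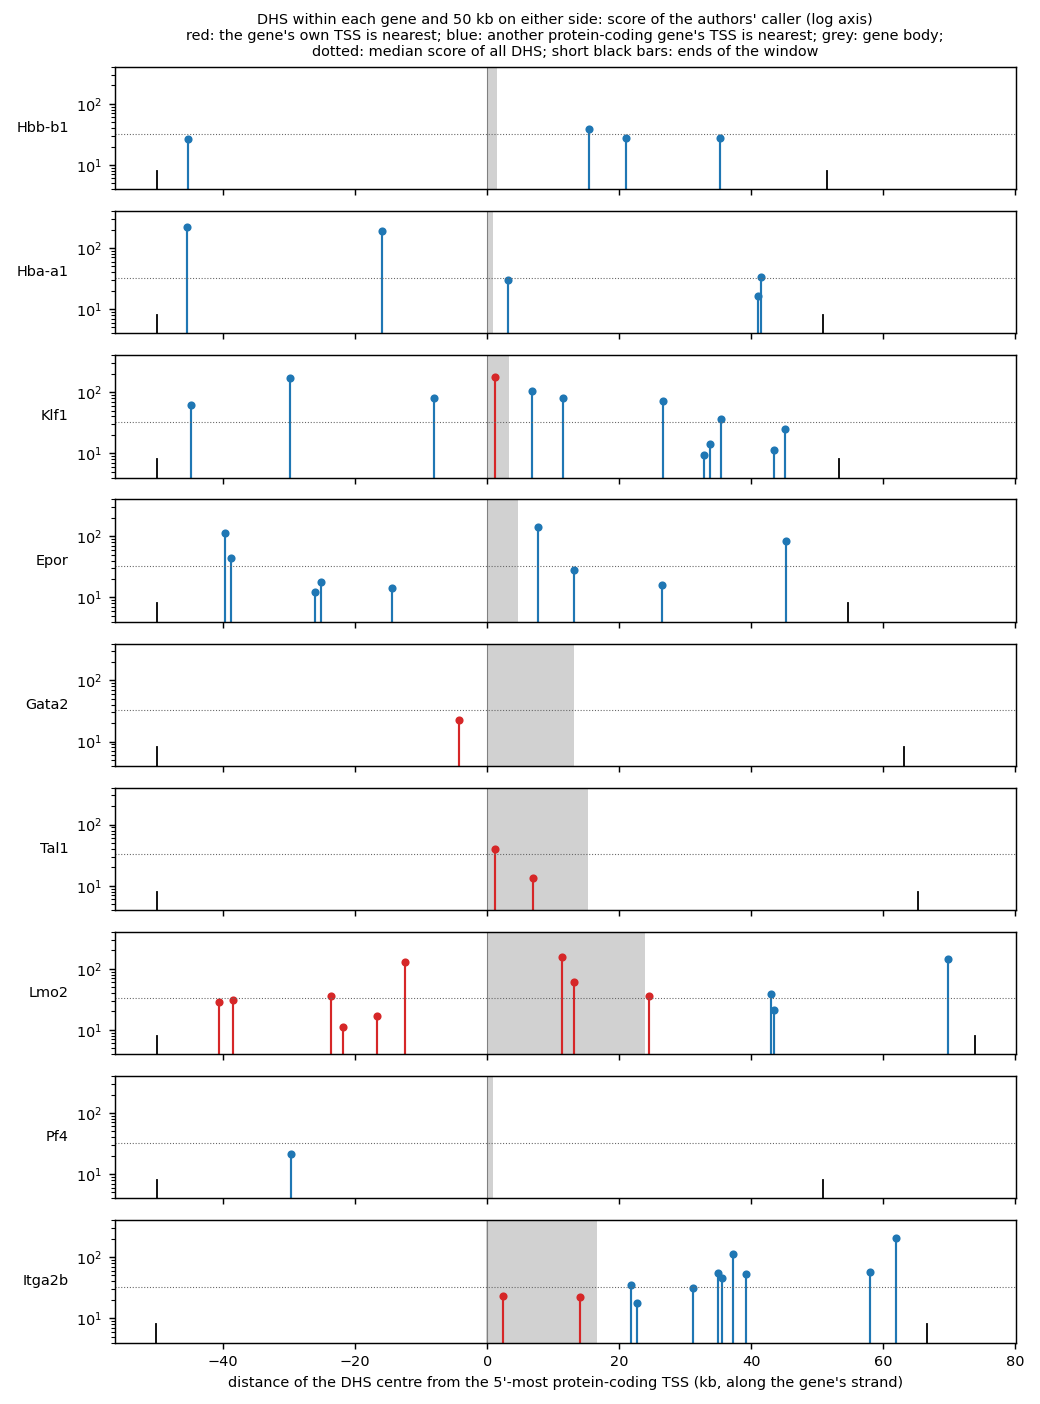
DHS around the 9 genes, 1 row per gene, by distance from the TSS in kb along the gene, with the authors' score on each row. The 12 DHS of Klf1 and 9 of Epor lie mostly at other genes, while 9 of 12 at Lmo2 have the TSS of Lmo2 nearest, and Gata2 and Pf4 show 1 DHS each.

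Each peak has a score from the authors' caller, with no stated scale, used here only to rank peaks within the list. Its median over all DHS was 32.65 (quartiles 17.86 and 69.91). Member DHS had a median of 35.65 and 31 of 57 were at or above the median of the list. The median was 31.42 for the 15 DHS nearest to a member and 36.98 for the 42 nearest to another gene. The median width was 762 bp in the member windows and 760 bp in the list.

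Hbb-b1 codes for an adult beta-globin chain (chr7:110975048-110976610, minus strand, mm9). No DHS overlapped its body or promoter, and the nearest was 15.24 kb from its TSS. The window held 4 DHS, with scores of 26.86, 27.92, 27.92 and 38.36, so 3 of the 4 were under the median of the list. The highest, chr7:110960994-110961367, covered the end of the last exon of the neighbouring adult gene Hbb-b2. A DHS at chr7:110941211-110941593 lay near the olfactory receptor gene Olfr67. The last, chr7:110955230-110955991, lay between them, 20.62 to 21.38 kb downstream of the Hbb-b1 TSS.

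The control region was taken as the interval from the TSS of the embryonic gene Hbb-y to the next protein-coding gene upstream, Olfr66 (chr7:111001754-111029819, 28066 bp). It held 1 DHS, at chr7:111021822-111022179, centred at −20.25 kb from Hbb-y, with a score of 26.86 at the percentile 42.5 of the list. The 40.7 kb of globin genes from Hbb-b2 to Hbb-y held 1, the DHS at the end of Hbb-b2. Widened by 50 kb upstream, the control interval still held 1. The central bases of the control region DHS and of the DHS between Hbb-b2 and Olfr67 are shown because they are the 2 DHS of this window that lay outside the −5/+2 kb window of every protein-coding gene. They are read on the minus strand, along the globin genes, and capitals mark the words found: TGTGGT of RUNX factors in the first, and a CTCF word (CC, 3 bases, AG, 2 bases, GGC) and AGATAA of GATA factors in the second. Words were searched on both strands, so a word may read in its complement, as do the RUNX and GATA words here. A match describes the letters and not a bound site.
Control region DHS, chr7:111021850-111022149 (-): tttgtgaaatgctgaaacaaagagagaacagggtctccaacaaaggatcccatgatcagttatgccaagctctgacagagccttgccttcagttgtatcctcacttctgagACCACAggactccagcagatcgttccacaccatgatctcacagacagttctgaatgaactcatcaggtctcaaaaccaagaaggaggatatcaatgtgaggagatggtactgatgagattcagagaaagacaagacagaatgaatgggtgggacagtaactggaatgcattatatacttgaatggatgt
Hbb-b1 downstream DHS, chr7:110955460-110955759 (-): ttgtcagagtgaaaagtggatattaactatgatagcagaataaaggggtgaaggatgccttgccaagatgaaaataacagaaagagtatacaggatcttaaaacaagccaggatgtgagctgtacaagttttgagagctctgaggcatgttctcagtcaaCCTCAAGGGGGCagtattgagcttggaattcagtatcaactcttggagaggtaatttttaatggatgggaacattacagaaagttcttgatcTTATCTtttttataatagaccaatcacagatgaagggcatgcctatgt
Of the 4 DHS of this window 3 held a GATA word in their central 300 bp, all but the one in the control region. Over all DHS the share was 18.9%. The control region sequence held no GATA word, no E-box and GATA pair and no NF-E2 word. The pair was in 2.19% of all DHS and the NF-E2 word in 0.487%, so most DHS lack these words.

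Hba-a1 codes for adult alpha-globin (chr11:32183511-32184465, plus strand). Its promoter and body also held no DHS. The window held 5, and the 2 highest, with scores of 217.36 and 187.87, lay at annotated starts of Nprl3, a widely used regulator of nutrient signalling. The others were 29.8, just upstream of the theta-globin gene Hbq1b and 3.20 kb downstream of the Hba-a1 TSS, and 16.07 and 33.08 more than 40 kb downstream. The alpha-globin enhancers are named by their distance from the embryonic gene Hba-x, and positions 8, 12, 21, 26 and 31 kb upstream of it were searched within 1 kb. The DHS at the Nprl3 promoter, chr11:32166887-32168385, ended 15 bp from the −8 kb position. None was called at the other 4, where the nearest DHS was 2487, 11487, 11327 and 6327 bp away.

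**Figure D2:**
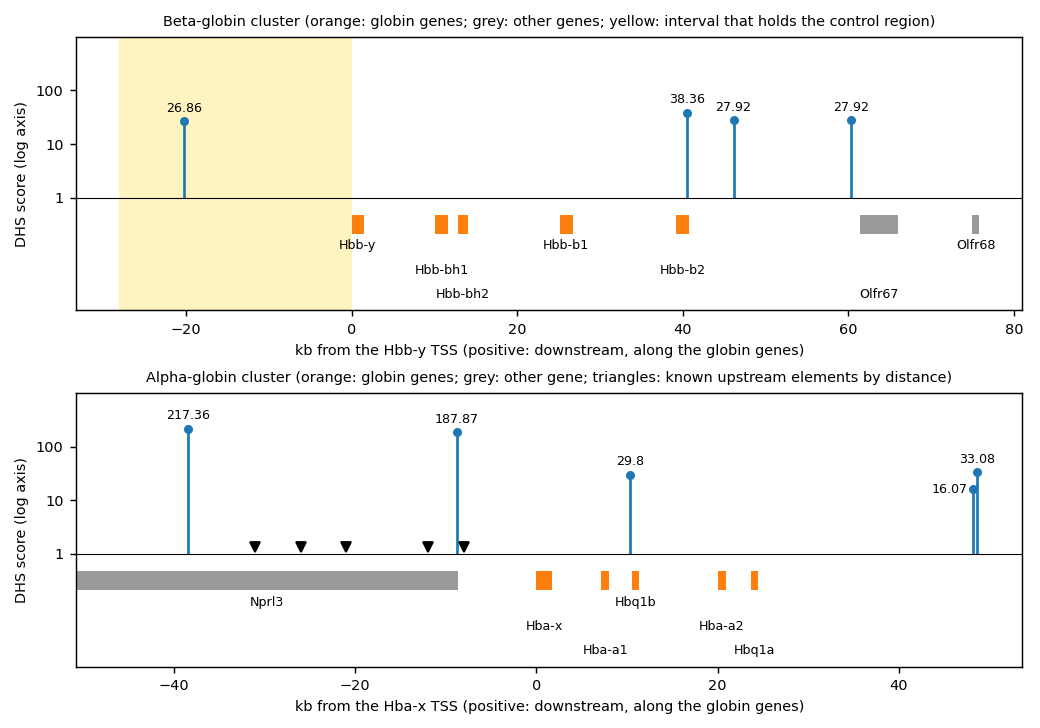
DHS of the beta-globin cluster by kb from the Hbb-y TSS (top) and of the alpha-globin cluster by kb from the Hba-x TSS (bottom), with the authors' score on a log axis and genes as boxes. The control region interval holds 1 DHS with a score of 26.86, and the highest alpha-cluster scores, 217.36 and 187.87, sit at Nprl3.

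The adult globin genes are near-identical copies, which bears on whether reads could be placed there. Of the 31-base words of the Hba-a1 body 96.8% occur more than once in the assembly, and 79.2% are shared with Hba-a2. In the 1 kb upstream the repeated share was 52.3%. For Hbb-b1 it was 70.3% of the body, all shared with Hbb-b2, but 1.03% of the 1 kb upstream, and in the control region 11.3%. How reads with several matches were treated was not given in the sources used here, so the bodies of the adult genes and the Hba-a1 promoter cannot be judged. The bodies of the other 7 members had 0 to 5.42% repeated words. Member DHS had a median of 0% and a maximum of 31.7%, the latter at the end of Hbb-b2.

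Klf1 (chr8:87425827-87429194, plus strand) is the erythroid activator of adult beta-globin. It had 1 DHS of its own, chr8:87426232-87427890, with a score of 177.81, the highest of the 15 DHS nearest to a member and at the percentile 95.3 of the list. The DHS ran from 0.40 to 2.06 kb downstream of the TSS over exon 2 of 3 and did not cover the TSS. It also lay in the −5/+2 kb window of Dnase2a. The other DHS of high score in this gene-rich window lay at the promoters of Syce2 (172.52), a meiosis gene, and Dnase2a (103.43), a lysosomal nuclease. The central bases are shown because this is the DHS with the highest score at any member. Capitals mark one KLF word (CCNCNCCC, read in its complement) and 2 CTCF words, also in their complement.
Klf1 intragenic DHS, chr8:87426911-87427210 (+): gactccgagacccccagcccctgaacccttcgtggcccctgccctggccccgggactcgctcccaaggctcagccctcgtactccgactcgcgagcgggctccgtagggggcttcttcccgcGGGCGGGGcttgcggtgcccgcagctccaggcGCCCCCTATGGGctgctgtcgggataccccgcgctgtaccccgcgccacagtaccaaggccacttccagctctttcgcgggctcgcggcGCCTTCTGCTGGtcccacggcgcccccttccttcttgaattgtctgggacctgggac
The sequence was 70.7% G and C and held no GATA word.

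Gata2 (chr6:88143885-88157024, plus strand), a factor of stem and progenitor cells, had a single DHS in 113.1 kb, chr6:88139229-88139941, with a score of 22.8. It lay 3.94 to 4.66 kb upstream of the TSS, inside the −5/+2 kb window but outside 1 kb. Gata2 has known upstream and intronic elements named by distance, of which the position at −3.9 kb was 44 bp from this DHS. None was called within 1 kb of the positions at −1.8, −2.8 and +9.5 kb. The sequence is shown as the only DHS of the locus, with a RUNX word in its complement and a CTCF word in capitals.
Gata2 upstream DHS, chr6:88139435-88139734 (+): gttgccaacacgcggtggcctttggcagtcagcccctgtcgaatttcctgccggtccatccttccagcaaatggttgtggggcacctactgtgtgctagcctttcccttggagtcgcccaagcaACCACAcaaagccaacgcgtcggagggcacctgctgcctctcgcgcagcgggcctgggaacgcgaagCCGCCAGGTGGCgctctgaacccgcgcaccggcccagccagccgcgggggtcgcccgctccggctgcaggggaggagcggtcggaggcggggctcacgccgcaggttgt
No GATA word was found in its whole length.

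Tal1 (chr4:114729031-114744360, plus strand) codes for a basic helix-loop-helix factor of blood stem cells and red cells. Its 2 DHS both lay in the gene. The first, chr4:114729000-114731347, had a score of 40.49 and covered 3 of the 4 annotated TSSs, and the second, chr4:114735611-114736299, had 13.28 and covered exon 3. The positions of the known elements at −4, +19 and +40 kb had no DHS within 1 kb, and the nearest were 3969, 11732 and 32732 bp away. The stretch of the promoter DHS outside UTR exons is shown for its run of KLF words, of which 6 lay in the central 300 bp, overlapping in part and all in their complement.
Tal1 promoter DHS, chr4:114730137-114730322 (+): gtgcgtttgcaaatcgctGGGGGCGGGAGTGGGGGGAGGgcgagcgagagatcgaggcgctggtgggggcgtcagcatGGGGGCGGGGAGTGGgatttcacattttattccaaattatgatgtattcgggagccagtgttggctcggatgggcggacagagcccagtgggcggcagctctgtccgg

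Lmo2 (chr2:103798143-103822035, plus strand) codes for the LIM-only bridge of the GATA and TAL1 complex. It was the member with the most DHS of its own, 9 of 12. The distal promoter had none, and the nearest DHS lay 10.43 kb downstream of it, at the proximal promoter. There chr2:103808574-103810321, with a score of 157.77, covered the TSSs of 4 coding transcripts, and chr2:103810517-103812073, with 60.99, covered the exon that follows. The central bases of the former held a PU.1 word (GAGGAAGT), the only one in the central 300 bp of the 57 DHS. Over whole peaks 3 of the 57 held it (5.26%), against 8.9% of all DHS.

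Upstream of Lmo2 6 DHS lay in intergenic sequence or, for the farthest, at the non-coding gene Gm13881, with scores of 28.31, 31.42, 36.39, 11.0, 16.7 and 131.47 at −40.60, −38.53, −23.68, −21.83, −16.76 and −12.41 kb. The one at −12.41 kb had the highest score of the 17 distal DHS. Downstream, 35.65 was found at +24.48 kb, 38.11 at +43.08 kb and 20.9 at +43.54 kb. The promoter of the neighbour Fbxo3, a ubiquitin ligase subunit, had 146.94. The DHS at −12.41 kb is shown for its score, with a RUNX word in capitals. The DHS at +24.48 kb is shown because it alone among the 57 held, in its central 300 bp, the E-box and GATA pair (CTG, then 7 to 9 bases, then GATAA), here in its complement and counted also as a GATA word, with another GATA word and a CTCF word. Over whole peaks 3 of the 57 held the pair (5.26%), against 7.0% of all DHS. The others were the Tal1 promoter DHS and a DHS in the Klf1 window.
Lmo2 upstream DHS, chr2:103785582-103785881 (+): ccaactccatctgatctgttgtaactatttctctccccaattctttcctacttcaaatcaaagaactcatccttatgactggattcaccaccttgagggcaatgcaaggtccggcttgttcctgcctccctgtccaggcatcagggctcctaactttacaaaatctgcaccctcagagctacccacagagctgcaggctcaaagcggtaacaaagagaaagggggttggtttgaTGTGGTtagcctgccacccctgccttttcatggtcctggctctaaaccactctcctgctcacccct
Lmo2 downstream DHS, chr2:103822471-103822770 (+): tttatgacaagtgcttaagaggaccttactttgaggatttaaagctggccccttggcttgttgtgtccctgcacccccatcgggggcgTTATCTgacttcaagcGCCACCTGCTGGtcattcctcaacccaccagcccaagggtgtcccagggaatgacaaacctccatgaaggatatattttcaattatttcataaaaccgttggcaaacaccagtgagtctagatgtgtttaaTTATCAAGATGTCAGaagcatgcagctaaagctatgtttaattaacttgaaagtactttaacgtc

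Epor (chr9:21763343-21768020, minus strand), the receptor through which erythropoietin keeps red cell precursors alive, had no DHS in its body or promoter. All 9 DHS of its window lay nearest to another gene, the closest 6.83 kb downstream of its TSS. The 3 highest were at 2310047B19Rik (139.94), Prkcsh (111.12), a glucosidase subunit, and Rab3d (83.9), a GTPase of secretion.

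Pf4 (chr5:91201461-91202407, plus strand), the platelet chemokine, had 1 DHS in 100.9 kb. It lay at chr5:91171362-91172010, centred at −29.78 kb, with a score of 20.98, and the nearest TSS was that of the chemokine gene Cxcl5. Its central 300 bp held none of the words searched.

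Itga2b (chr11:102314611-102331436, minus strand) codes for the integrin chain CD41 of platelets. It had 2 DHS of low score, both in exons. The first, chr11:102328642-102329008, had 22.73 and covered exons 3 to 4 of 30, and the second, chr11:102316823-102317471, had 22.19 and covered exons 28 to 29. Neither reached the −5/+2 kb window of the coding transcript, and both were promoter DHS through TSSs of shorter processed transcripts within the gene. The highest DHS of the window were at the neighbours Slc25a39 (204.53), a mitochondrial carrier, and Grn (114.08), coding for progranulin.

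The words of lineage factors were counted in the central 300 bp of each DHS. A GATA word (AGATAA or TGATAA) was in 9 of 57 member DHS (15.8%), against 18.9% of 47474 DHS on chromosomes 1 to 19 and X. Of the 15 DHS nearest to a member 3 held one, 1 of them at Lmo2 +24.48 kb and the other 2 at Lmo2 −38.53 and −21.83 kb. The E-box and GATA pair was in 1 of 57, against 2.19%, and the NF-E2 word (GCTGAGTCA) in 0, against 0.487%. The KLF word was in 32 (56.1%, interval 42.4 to 69.3), against 35.3% of all DHS. This word is more frequent in promoter DHS, where it was in 46.4% of all and in 25 of 40 around the members, against 26.8% of all distal DHS and 7 of 17 here. PU.1 was in 1, against 3.61%, and RUNX in 12 (21.1%), against 20.6%. The CTCF word, which was added after the positions of the DHS had been seen, was in 8 (14.0%), against 11.6%, and 5 of these were nearest to a member.

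Other genes of the same lineages were read from lists. Of 11 further transcription factors and cofactors 10 had a promoter DHS (90.9%), against 57.0% of all protein-coding genes. Only Gata1, the master factor of red cell maturation, had no promoter DHS, with 1 DHS in its window. Of 11 haem and red cell genes 4 had one (36.4%), among them Ermap (86.57), Fech (95.66) and Tfrc (123.16). Fech, which puts iron into haem, and Tfrc, the transferrin receptor, are used by many dividing cells. Of 12 megakaryocyte and platelet genes 6 had one, and of 8 other globin genes 2, Hbb-b2 and Hbq1b, neither with the TSS covered. The median density was 8.72 DHS per 100 kb for the factors, 2.52 for haem and red cell genes, 4.19 for platelet genes and 3.96 for the globins.

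For comparison, all 9 B cell factors had a promoter DHS with the TSS covered, and a median density of 9.90 DHS per 100 kb. Their highest promoter scores had a median of 259.5, against 40.49 for the 5 members with one. The same median was 101.2 over all protein-coding genes with one and 42.54 for the listed myeloid genes with one. Of 9 myeloid genes 5 had one, namely Cebpa, Cebpe, Csf3r, Elane and Itgam, the same count as among the 9 erythroid and megakaryocyte genes.

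**Figure D3:**
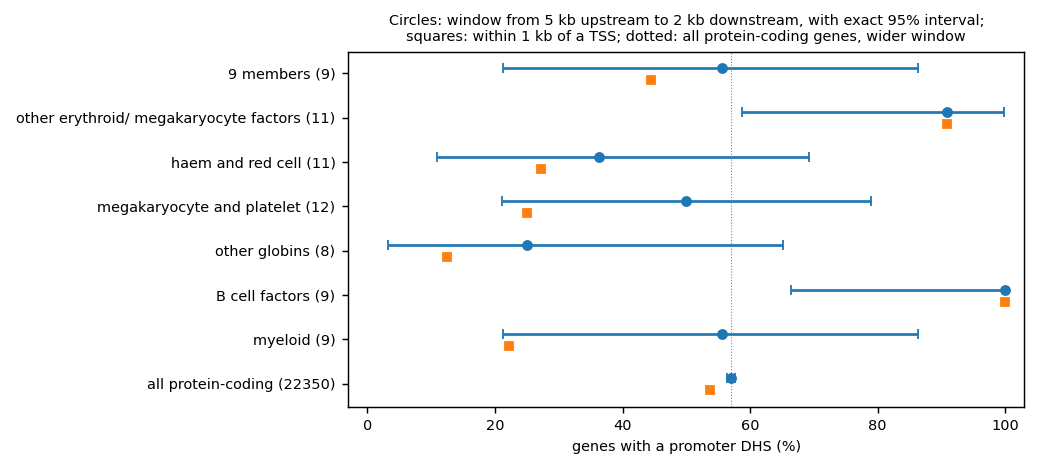
Share of each gene list with a promoter DHS in percent (circles; squares, within 1 kb of a TSS), with exact 95% intervals for counting error and the share over all protein-coding genes as a line. The 9 members, at 55.6%, sit near the 57.0% line, the B cell factors are at 100%, and the intervals of the short lists are wide.

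**Figure D4:**
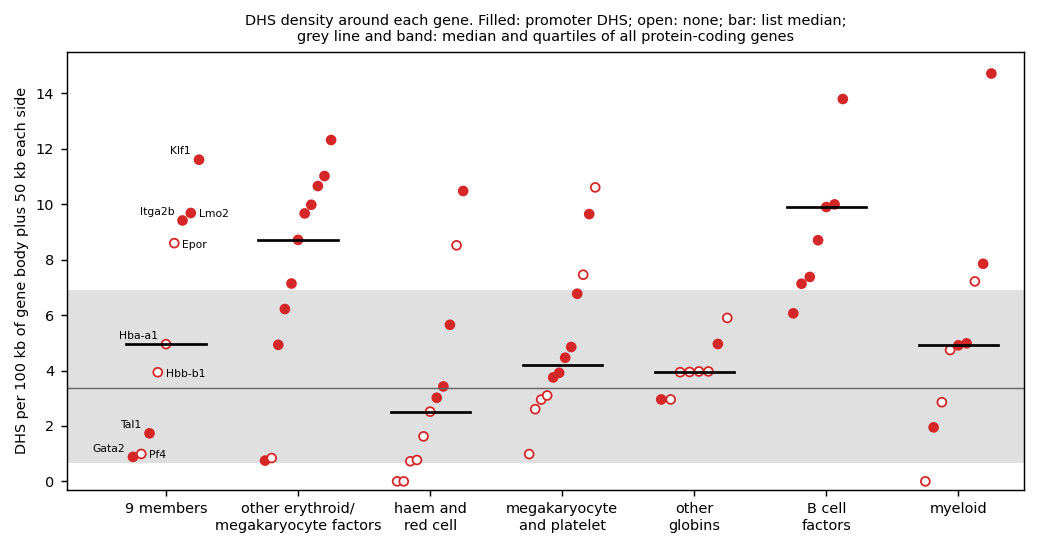
DHS per 100 kb of gene body and 50 kb on each side, 1 point per gene and 1 column per list, with list medians as bars and the median and quartiles of all genes in grey. The B cell factors at 16.03 and 17.56 lie above the end of the axis and are not drawn. The members run from 0.884 at Gata2 to 11.6 at Klf1 around a median of 4.95, and 3 of the 9 lie below the median of all genes.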

How the data were processed

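DNaseI digested chromatin of splenic B cells was sequenced as 1 library with 1 input library. The authors deposited a peak list with a score for each peak of the DNaseI library. Per the submitters' processing notes, BWA 0.6.2, SAMtools and mm9 were used. Peak names are those of MACS. The methods of the study name a version and a threshold of MACS for its ChIP-seq peaks, and whether these also apply to the DNaseI library is not stated. The scale of the score was not given in the sources used here. The input library entered only as far as the caller used it.

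Peaks were placed on GENCODE M1 genes (mm9), with positions counted from 1, using Python 3.11.15, pandas 2.3.3, scipy 1.17.1 and pyfaidx 0.9.0.4. TSSs of all transcripts were used for the −5/+2 kb window, and densities and shares were set beside 22350 protein-coding genes of chromosomes 1 to 19 and X. A promoter was CpG-rich when the 1000 bp around the TSS had at least 55% G and C and a CpG count at least 0.6 times that expected from its bases. Exact Clopper-Pearson intervals at 95% cover counting error only. Repeats are the 31-base words found more than once in the assembly. Known elements were placed by their usual names in kb, from general knowledge. The scripts were tested on simulated data.

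The members and lists were chosen with earlier results of these data known. All 9 members are named. Of other lists, the text names those with a promoter DHS if fewer than 6 have it, else those lacking it if fewer than 6 do, and neighbours where their peak is among the 3 highest of a window. A RefSeq table was used for older symbols only. Of the erythroid and megakaryocyte marker lists most genes are named, and the values of some listed genes are not reported here. Gfi1 and Ahsp had no match among protein-coding genes and were not analysed here. Alternatives were flanks of 10 and 100 kb, peaks at or above the median score, peaks merged across gaps under 500 bp, other promoter definitions, whole peaks for the words, and a wider control interval.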

Additional observations from a re-analysis of the deposited data

How the results depend on the processing

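With 1 library there is no replicate to leave out and no test, and the alternatives change counts only. No paired analysis was possible because the series has 1 DNaseI library and no test. The number of DHS follows the window: 57 with flanks of 50 kb became 17 with 10 kb and 110 with 100 kb, 31 when only peaks at or above the median score were kept, and 48 after merging gaps under 500 bp. The 5 members with a promoter DHS became 3 with peaks at or above the median score (Klf1, Tal1 and Lmo2), and 3 with the TSS farthest upstream only (Klf1, Gata2 and Tal1). They became 4 with 1 kb on each side, 4 with TSSs of protein-coding transcripts (without Itga2b), and 5 by peak centres. With a DHS over a TSS, a setting chosen after seeing the data, 2 remained (Tal1 and Lmo2). Klf1 and Tal1 were counted in each of the settings planned. The share of member DHS with a GATA word rose from 15.8% to 42.1% over whole peaks, where it was 45.6% of all DHS, and was 22.8% for GATAA alone, against 25.98%. The median member density was 5.66, 5.996 and 2.97 DHS per 100 kb with flanks of 10 kb, flanks of 100 kb and peaks at or above the median score, against 3.39, 3.35 and 1.78 over all genes. The control region held 1 DHS in both intervals. Depth is unknown, so sites missed for want of reads cannot be counted.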

Other observations

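Among the listed factors not described one by one, chosen after their values were seen, Zfpm1, a GATA cofactor, had the highest promoter score at 229.73, with Lyl1, a relative of Tal1, at 191.75 and Fli1, a platelet factor also made in B cells, at 185.19 with 27 DHS in its window. Nfe2 had the lowest of the 10 with a promoter DHS, at 38.5. Kel, a protein of the red cell membrane, had 0 DHS within 50 kb, and the nearest lay 99.42 kb from its TSS. Slc4a1, the red cell anion exchanger, had 10 in its window but none nearer than 27.71 kb.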
